A study of Arabidopsis thaliana with 11 samples.

Results

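Endosperm whose father lacked the DNA methyltransferase MET1 was compared with endosperm of the same cross and a wild-type father, gene by gene, in 3 of the 11 libraries of the series. All 3 came from seeds of wild-type Landsberg (Ler) mothers, dissected 7 to 9 days after pollination. In 1 library the pollen came from plants homozygous for met1-6, labelled Columbia-0 but described in the growth protocol as Col-gl, that were obtained from a selfed heterozygote never homozygous before. In the other 2 the pollen came from wild-type Columbia-0 plants. The met1 father library and 1 of the wild-type libraries are labelled pure endosperm, and the other wild-type library is labelled full endosperm. How the 2 preparations differ, and whether seeds of several plants were pooled, is not given in the labels. Reads with fewer mismatches to 1 ecotype were counted per gene, so a Col read is paternal and a Ler read is maternal in all 3 libraries.

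Endosperm is the nutritive tissue of the seed and is formed when a sperm cell fertilises the central cell, so that each nucleus holds 2 maternal genomes and 1 paternal genome. MET1 copies methylation of CG sites at each DNA replication, and pollen of met1 plants delivers a paternal genome that has lost much of this methylation. Methylation is known to keep transposons and some genes silent, and several imprinted genes are maternally expressed because the paternal copy stays methylated while the maternal copy is demethylated in the central cell by DEMETER, a DNA glycosylase. The comparison therefore asks which paternal copies are expressed differently when they come from a met1 father, and whether the maternal copies and the totals differ too.

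The met1 father library held 1057104 allele-assigned reads, against 2840412 in wild-type pure and 4828301 in wild-type full endosperm. Paternal reads were 26.4% of the met1 father library, against 33.1% and 28.5%. MET1 itself had 2 maternal and 0 paternal reads in the met1 father library, 0 reads in wild-type pure and 2 maternal and 1 paternal in wild-type full endosperm, which is too few to check the genotype. Levels are reads per 1000000 allele-assigned reads of a library (RPM). Markers of the endosperm summed to 187713 RPM in met1 father endosperm, against 132666 and 144622 RPM, of which the extensin gene EPR1 gave 187191, against 131002 and 143862 RPM. Of the 12 markers, 8 had a read in any of the 3 libraries. In met1 father endosperm 7 were at 0, AGL62 and IKU2 among them, and some of these 7 were at 0 in both wild types as well. Markers of the seed coat, a purely maternal tissue, summed to 13703 RPM in met1 father endosperm, against 2957 RPM in wild-type pure and 10198 RPM in wild-type full endosperm. Between the libraries, differences were larger than sampling noise, with a chi-square per degree of freedom of 53.8 for met1 against wild-type pure, 26.2 for met1 against wild-type full and 85.7 between the 2 wild types. This measure grows with depth, and depth and the genes used differ between the pairs, so the 3 values do not rank the pairs.

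With 1 met1 father library, each gene was described by a rule of size: its RPM had to be at least 4-fold above both wild-type libraries, or at least 4-fold below both, with at least 20 reads on the higher side and counts under 3 set to 3 reads. A test was run in addition with edgeR's quasi-likelihood fit on all 6 endosperm libraries of wild-type mothers (3 of them Col × Ler), which assumes that the met1 father library varies as the wild-type libraries do. Its p-values were adjusted by Benjamini-Hochberg over all genes tested. Among the Col × Ler libraries, the one whose title carries LCM stood apart. EPR1, an extensin-like gene of the endosperm, took 4209 of its 358142 reads, against 232749 of 2700162 reads in the other pure Col × Ler library. Results that rest on the LCM-titled library are given without it too. The p-values measure the spread between these libraries, which also holds the difference between preparations and may be technical.

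Paternal reads of 27 genes passed the rule in the higher direction, which is 0.794% of the 3401 genes with enough paternal reads, and 75 passed it in the lower direction, which is 2.21%. At 8-fold the split turned, to 21 higher and 8 lower. By edgeR, paternal reads of 16 of 8121 genes rose in met1 father endosperm (0.197%) and those of 0 genes fell (0%), with 78 and 213 genes at an unadjusted p under 0.05. DESeq2 called 12 higher and 1 lower. With rises and falls added, and at most 2 falls in each fit, the edgeR count of 16 depended on single libraries. It was 8 without the wild-type pure Ler × Col library, 3 without the full one, 8 without the LCM-titled library, 29 without the other pure Col × Ler library and 33 without the full Col × Ler library. Without the LCM-titled library AT1G59930, AT1G63540, AT1G67105, AT2G06562, AT2G15555, SDC, AT3G30230 and AT5G15690 remained, and the other 8 had an adjusted p from 0.0607 to 0.083. The rises of AT1G59930, AT1G67105 and AT2G15555 were called in all 11 alternative analyses. Of the 27 genes past the rule, 14 were also among the 16. The median gene had a fitted paternal log2 change of −0.45, so the paternal level of the median gene lay below wild type while a small group of genes stood far above it.

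**Figure D1:**
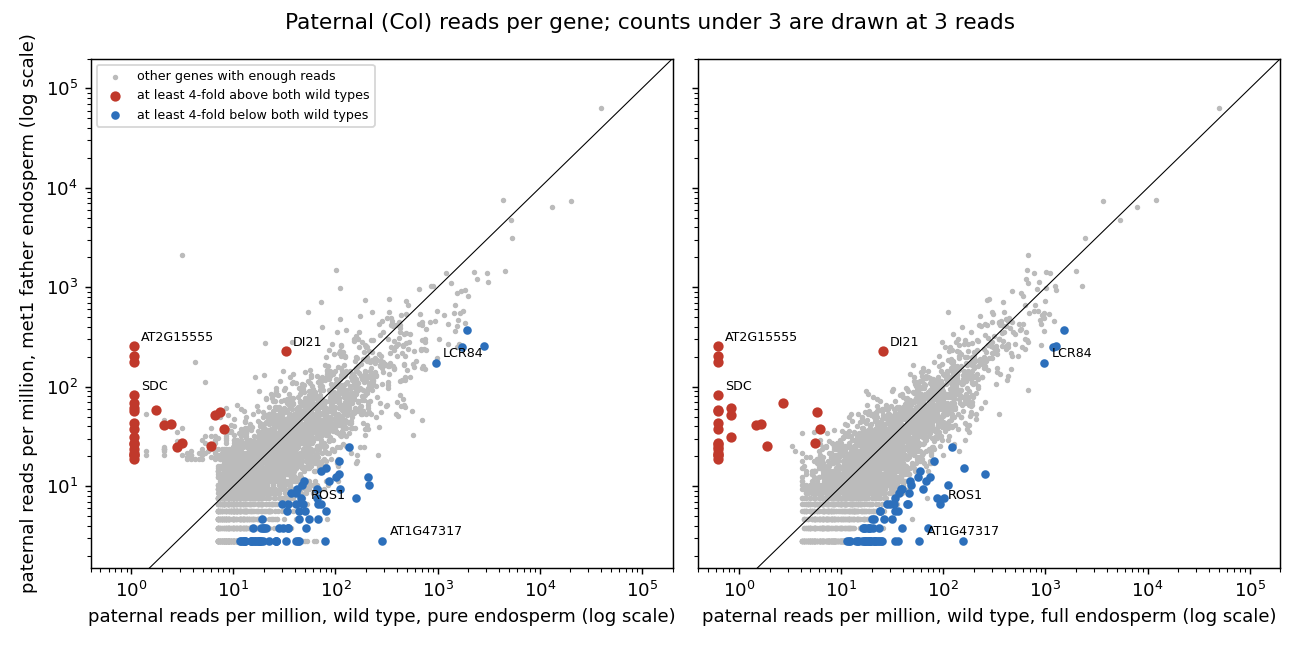
Paternal (Col) RPM for each gene in met1 father endosperm (vertical axis, log scale) against wild-type pure endosperm (left) and wild-type full endosperm (right; horizontal axes, log scale), with counts under 3 drawn at 3 reads and the line of equal level. Red points are the 27 genes at least 4-fold above both wild types, blue points the 75 genes at least 4-fold below both and grey points the other genes with enough reads.

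The 27 genes fell into groups by how wild-type endosperm used them, a grouping made after their values were seen. Of these, 9 stood under 10 RPM in both wild-type libraries. A further 7 were read almost only from the maternal copy in both cross directions: at most 10% paternal in Ler × Col and over 90% Col, the maternal allele, in Col × Ler. In 3 genes at most 10% of wild-type reads were paternal in Ler × Col, but the Ler allele also gave over 90% of the reads in Col × Ler, where it comes from the father. In 5 genes over 10% of the wild-type Ler × Col reads were paternal, and the last 3 had few or mixed reads in Col × Ler. In Col × Ler wild type, 9 of the 18 genes with at least 20 reads had over 90% Col reads (50%), against 5.01% of all genes with enough paternal reads. Of the 27 genes, 4 are annotated as not protein coding (14.8%), against 0.413% of all genes with enough paternal reads. A gene with few paternal reads in wild type passes the rule more easily, so these shares partly follow from the rule. The files do not say whether counting used strand or how reads matching several genes were treated, so values of non-coding, overlapping and closely related genes are uncertain.

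In most of the group near silence in wild type, reads came almost only from the met1 father's copy. The non-coding RNA gene AT2G15555 had 255 paternal RPM in met1 father endosperm, against 0 paternal reads in both wild-type libraries, a level at least 242-fold higher than in wild-type pure and at least 411-fold higher than in wild-type full endosperm (a count of 0 taken as 3 reads per library). Its maternal copy gave 3 reads in met1 father endosperm, against 4 and 27. A second non-coding RNA gene, AT1G67105, had 202 paternal RPM, against 0 reads in either wild type, which makes it at least 192-fold and at least 326-fold higher, and its maternal copy gave 1 read, against 0 and 1. Paternal reads of both genes rose (edgeR's quasi-likelihood test, adjusted p = 0.000164 and 0.000176).

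AT3G30230, annotated as a myosin heavy chain-like protein, had 57.7 paternal RPM, against 0 paternal reads in both wild types, at least 54.6-fold and at least 92.9-fold higher, with 0 maternal reads in met1 father endosperm. AT5G15690, a zinc ion binding protein, had 61.5 paternal RPM from 65 reads, against 1 read in wild-type pure and 4 in wild-type full endosperm. Its ratio of paternal RPM was 175 to wild-type pure (95% counting interval 30.3 to 7003) and 74.2 to wild-type full (27.6 to 281). All 65 reads of AT5G15690 in met1 father endosperm were paternal, and 0 maternal reads of 65 allows a maternal share of up to 4.62% (3 reads of 65). Non-coding AT2G06562 had 37.8 paternal RPM, non-coding AT2G07213 and protein-coding AT3G43833 had 20.8 each, and AT5G03090, a Mto 1 responding down protein, had 21.8. None of these 4 had a paternal read in either wild type, and paternal reads of all 6 genes of this paragraph rose by edgeR (adjusted p from 0.000976 to 0.0307). Another myosin heavy chain-like gene, AT5G32590, and AT5G45573 were also called, with 19 and 18 paternal reads in met1 father endosperm and 0 in either wild type, below the 20 reads of the rule.

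Maternally expressed genes formed the second group. AT1G59930, a MADS-box family gene, had 179 paternal RPM in met1 father endosperm, against 0 reads in both wild types, so at least 169-fold and at least 288-fold higher. Its maternal copy stood at 191 RPM in met1 father endosperm, against 119 RPM in wild-type pure and 26.5 RPM in wild-type full endosperm. Paternal reads were thus 48.3% of its reads (exact 95% binomial interval 43.3% to 53.4%), against 0% and 0%, and in the 3 Col × Ler libraries it had 661 maternal and 1 paternal read. Paternal reads rose by edgeR (adjusted p = 0.000164).

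SDC, an F-box gene known for promoter repeats that keep it silent when methylated, had 82.3 paternal RPM from 87 reads, against 1 paternal read in each wild type. Its ratio of paternal RPM was 234 to wild-type pure (counting interval 40.9 to 9338) and 397 to wild-type full (69.5 to 15873), and edgeR called the rise (adjusted p = 0.000976). The maternal copy of SDC had 31.2 RPM in met1 father endosperm, against 19 and 13.5 RPM, so that 72.5% of its reads were paternal (63.6% to 80.3%), against 1.82% and 1.52%. The AP2-type transcription factor gene AT4G31060 had 58.7 paternal RPM, against 1.76 and 0.414 RPM, and 42.6 maternal RPM, against 25.3 and 32.5 RPM. AT5G41830, of the RNI-like superfamily, had 31.2 paternal RPM, against 0.352 and 0.828 RPM, beside 184 maternal RPM, against 92.9 and 142 RPM. Paternal reads of both rose (edgeR, adjusted p = 0.0424 each), and each of these calls held in only 5 of 11 alternative analyses. The 2 cases differed in share: 57.9% of reads were paternal for AT4G31060 (48.0% to 67.4%) and 14.5% for AT5G41830 (10.2% to 19.7%).

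JLO, which encodes a LOB-domain transcription factor, had 42.6 paternal RPM, against 2.46 and 1.66 RPM, 17.3-fold (7.73 to 45.4) and 25.7-fold (12 to 63.1) higher (counting intervals). Its maternal copy, at 110 RPM, lay between wild-type pure (221 RPM) and wild-type full endosperm (43.3 RPM). For ENODL1, an early nodulin-like protein gene, paternal reads stood at 41.6 RPM, against 2.11 and 1.45 RPM, and maternal reads at 47.3 RPM, against 25.7 and 30.9 RPM. In neither gene did paternal reads pass edgeR's threshold (adjusted p = 0.0808 each), whereas the paternal-to-maternal ratio of both did.

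A set of 3 genes carried a Col copy that was nearly silent in wild type whichever parent gave it. AT1G63540, a hydroxyproline-rich glycoprotein family gene, had 43.5 paternal RPM in met1 father endosperm, against 0 reads in wild-type pure and 1 read in wild-type full endosperm. In the 3 Col × Ler libraries, where Col is the mother, it had 1 Col read and 251 Ler reads. Its Ler copy gave 64.3 RPM in met1 father endosperm, against 108 and 57.4 RPM, and paternal reads rose by edgeR (adjusted p = 0.00284). AT3G44070, of glycosyl hydrolase family 35, had 25 paternal reads in met1 father endosperm, against 3 and 1, and 2 Col and 162 Ler reads in Col × Ler. MRD1, a gene named for its response in the mto1 mutant, had 24.6 paternal RPM, against 2.82 and 0.621 RPM, and 12 Col and 135 Ler reads in Col × Ler. Paternal reads of the last 2 did not pass edgeR's threshold (adjusted p = 0.0542 and 0.443).

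DI21, a drought-induced gene, was the 1 gene of the 27 whose maternal reads passed the rule as well. It had 229 paternal RPM in met1 father endosperm, against 32.7 and 25.5 RPM, and 282 maternal RPM, against 44.0 and 38.3 RPM. Its paternal share of 44.8% lay near the wild-type shares of 42.7% and 39.9%, and neither copy passed edgeR's threshold (adjusted p = 0.669 paternal and 0.999 maternal). NRPD2B, related in sequence to the polymerase subunit gene NRPD2A and therefore uncertain in its counts, just passed the rule with 25.5 paternal RPM, against 5.99 and 1.86 RPM. EIN2, a central gene of ethylene signalling named here after its values were seen, stayed just under the rule at 75.7 paternal RPM, against 21.1 and 22.6 RPM.

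**Figure D2:**
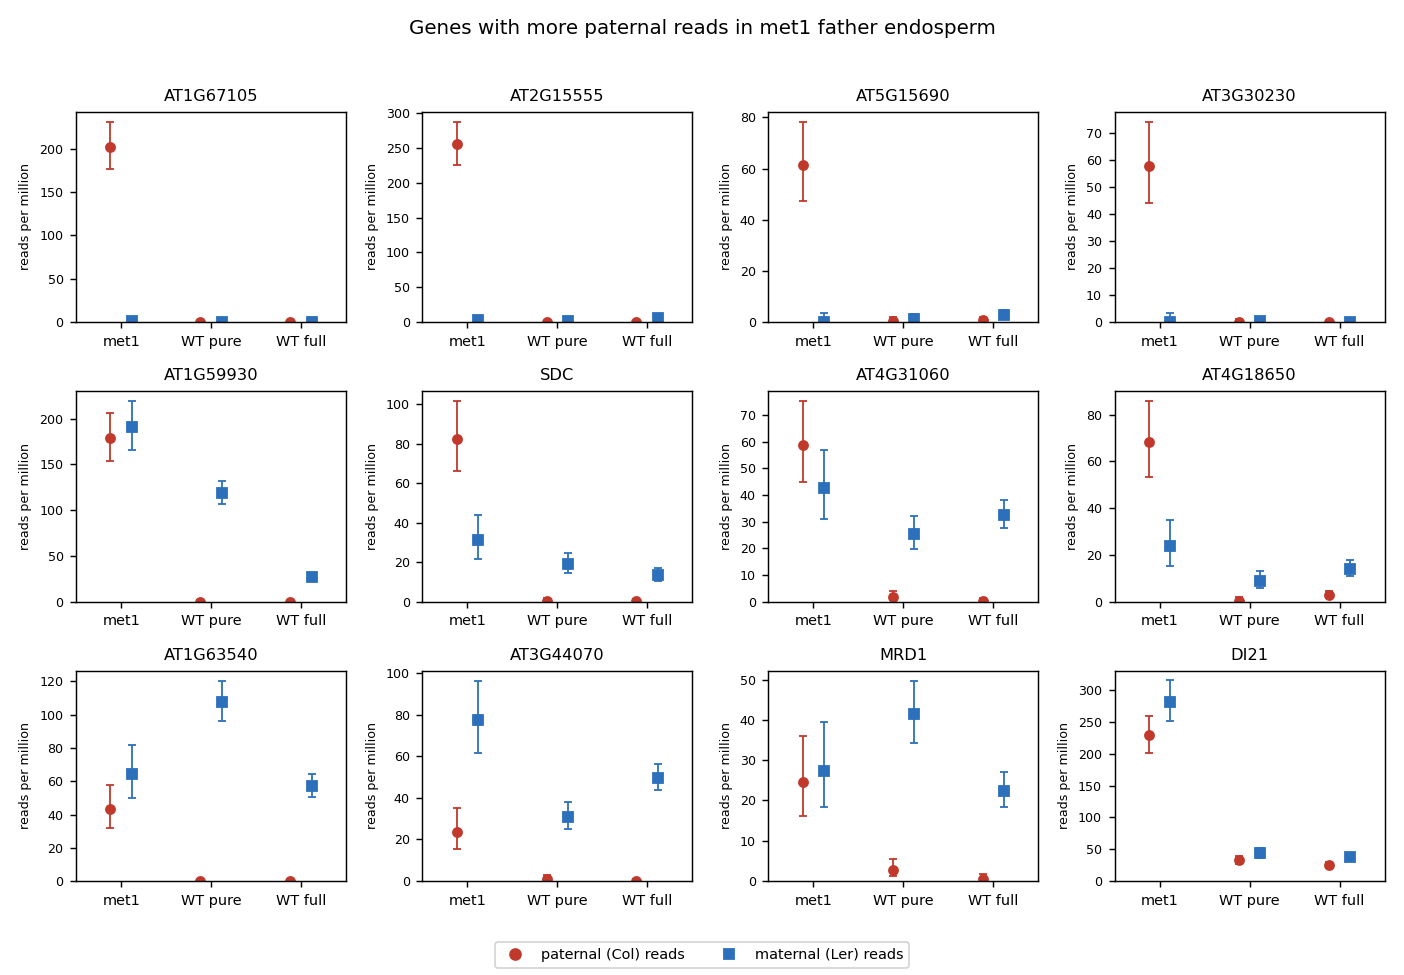
Paternal (red circles) and maternal (blue squares) RPM in met1 father, wild-type pure and wild-type full endosperm for 12 genes past the rule, chosen to show each group, with exact 95% Poisson intervals for counting error. The top row shows genes near silence in wild type, the middle row genes read mainly from the maternal copy in wild type and the bottom row 3 genes with a quiet Col copy and DI21, in which both copies stand high.

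Among the 75 genes with lower paternal reads, the maternal copy of 12 passed the same rule in the same direction. In 44 the maternal level was less than 2-fold below at least 1 of the wild types, though it could be lower against the other. ROS1 (DML1 in the RefSeq table) is a DNA glycosylase that removes methylated cytosine, and its expression is known to depend on methylation of its promoter, which was not measured here. It had 6.62 paternal RPM in met1 father endosperm, against 48.2 RPM in wild-type pure and 93.6 RPM in wild-type full endosperm, 7.28-fold (3.44 to 18.5) and 14.1-fold (6.81 to 35.4) lower. The maternal copy, at 102 RPM, lay between the wild types at 94.0 and 147 RPM. Paternal reads were 6.09% of ROS1 reads (2.48% to 12.1%), against 33.9% and 39.0%, and the paternal-to-maternal ratio fell by 3.14 on the log2 scale (SE 0.71, edgeR, adjusted p = 0.00438).

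AT3G14205, a phosphoinositide phosphatase gene, showed the same form, with 13.2 paternal RPM, against 108 and 254 RPM, and 53.0 maternal RPM, against 48.9 and 154 RPM. Its ratio fell by 2.92 (SE 0.65, edgeR, adjusted p = 0.0032). RR21, a type-B response regulator of cytokinin signalling, had 3.78 paternal RPM, against 31.0 and 70.4 RPM, and 11.4 maternal RPM, against 12.7 and 14.3 RPM, but its ratio did not pass the threshold (adjusted p = 0.109). BET10, a bromodomain gene named after its values were seen, had 3 paternal reads in met1 father endosperm, against 53 and 95, beside 5 maternal reads, against 6 and 17. These counts come from libraries of 1057104, 2840412 and 4828301 reads. Relative to depth, its few maternal reads were thus not lower than in either wild type. In Col × Ler wild type BET10 had 396 Col and 5 Ler reads, so its Ler copy was little read from either parent.

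HDG3, an HD-ZIP IV homeobox gene known as paternally expressed in endosperm, had 1 paternal read in met1 father endosperm, against 116 and 100, a level lower by 43.2-fold (counting interval 7.6 to 1720) and 21.9-fold (3.84 to 873). Its maternal copy gave 2 reads, against 21 and 21, and total HDG3 was 2.84 RPM, against 48.2 and 25.1 RPM. This gene varied widely among wild-type libraries, with 170 reads in the LCM-titled library and 164 and 5 in the other Col × Ler libraries. These are counts not scaled to depth, which was 358142 reads in the LCM-titled library and up to 4562509 in the others. Paternal reads of HDG3 did not pass edgeR's threshold (adjusted p = 0.942).

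In other genes of the lower group both copies, or the only copy read, stood below both wild types. The thionin gene AT1G53282 had 0 paternal reads in met1 father endosperm, against 223 and 751, at least 27.7-fold and at least 54.8-fold lower, and 4 maternal reads, against 307 and 1206. The defensin-like gene AT1G47317, which was read from the Col copy in both cross directions, had 0 reads in met1 father endosperm, against 820 and 282, and stood at least 102-fold and at least 20.6-fold lower. LCR84, another small cysteine-rich protein gene, had 175 paternal RPM, against 959 and 972 RPM, and 265 maternal RPM, against 2355 and 2252 RPM. CLSY1 (CHR38 in the RefSeq table), a chromatin remodeller of RNA-directed DNA methylation, had 1.89 paternal RPM, against 16.5 and 14.5 RPM, and 4.73 maternal RPM, against 29.2 and 26.5 RPM. The deeply read chromatin protein gene AT4G26630, of the DEK family and chosen after its values were seen, had 249 paternal RPM, against 1724 and 1187 RPM, and 628 maternal RPM, against 3739 and 3942 RPM. In the LCM-titled library it had 62 reads, and none of these 5 genes passed edgeR's threshold for paternal reads (adjusted p from 0.0808 to 0.942).

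**Figure D3:**
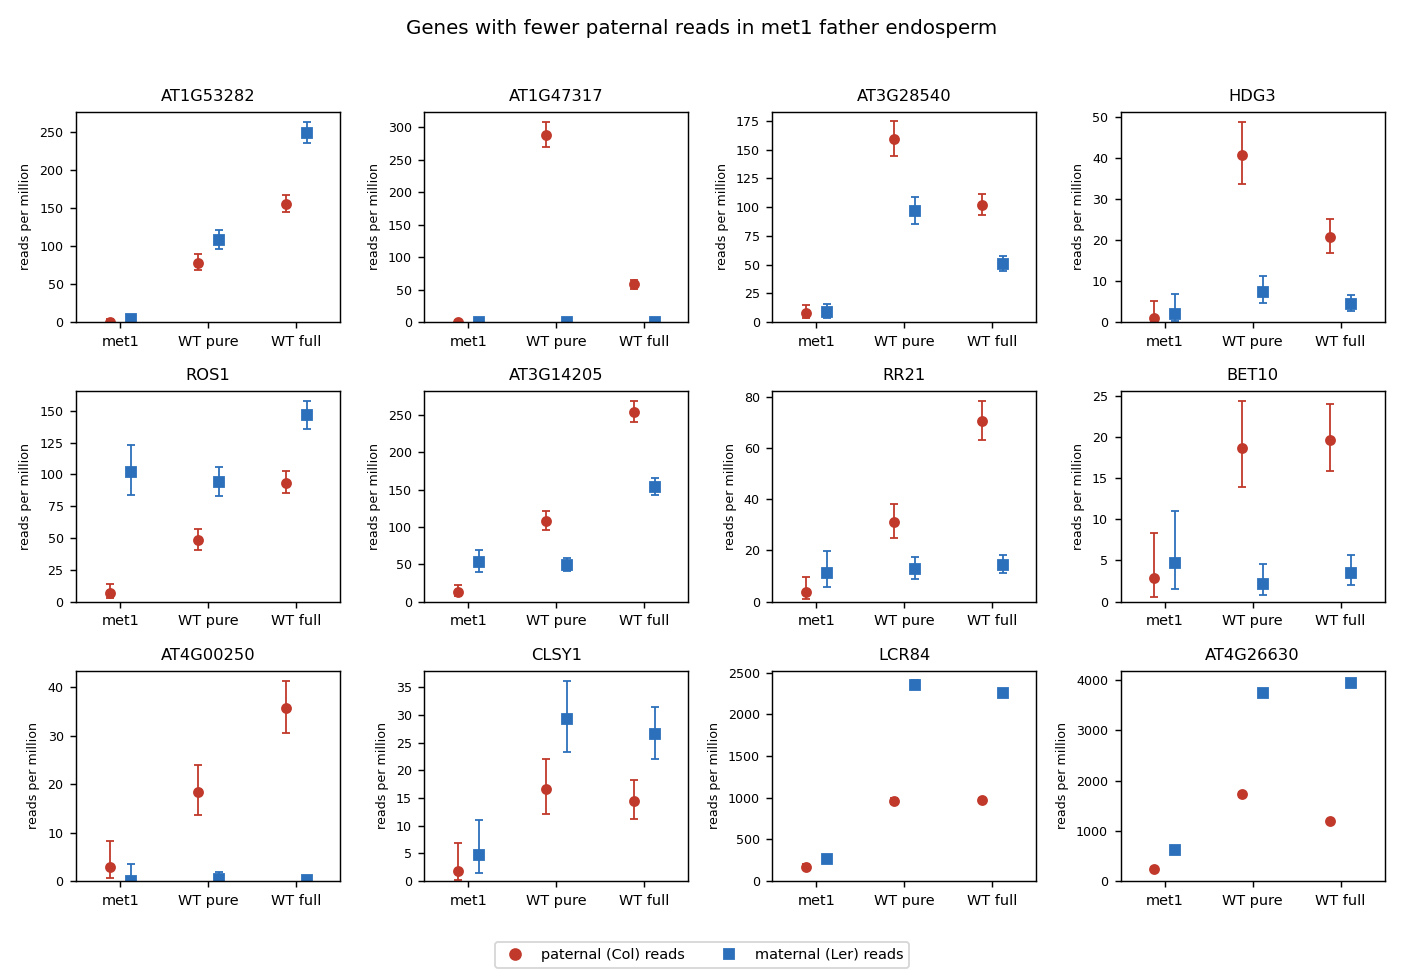
Paternal (red circles) and maternal (blue squares) RPM in met1 father, wild-type pure and wild-type full endosperm for 12 genes with lower paternal reads, with exact 95% Poisson intervals for counting error. ROS1, AT3G14205 and RR21 keep maternal reads within or near the wild-type range, whereas AT1G53282, CLSY1, LCR84 and AT4G26630 are low for both copies.

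The paternal-to-maternal ratio, in which a level shared by both copies cancels, rose for 25 of 11219 genes (0.223%) and fell for 17 (0.152%) by edgeR, with 185 and 591 genes at an unadjusted p under 0.05. DESeq2 called 6 and 7. Tested against the median change of all genes, which was −0.41 on the log2 scale, 34 rose and 10 fell. The counts and their balance rest on the wild-type libraries and the model: without the pure Ler × Col library 14 rose and 3 fell, without the full one 20 rose and 66 fell, with a term for preparation 31 rose and 134 fell, and without the LCM-titled library 30 rose and 29 fell, with all 42 among them. Of the 25, 17 also passed the rule for higher paternal reads. Their paternal share ranged from 9.52% to 100% in met1 father endosperm with a median of 47.3%, against medians of 1.82% in wild-type pure and 1.26% in wild-type full endosperm. Besides AT1G59930, SDC, AT4G31060 and AT5G41830, the ratio of JLO rose by 4.25 on the log2 scale (SE 0.69, adjusted p = 1.23e-06), that of ENODL1 by 3.83 (SE 0.79, adjusted p = 0.000877) and that of EIN2 by 2.43 (SE 0.56, adjusted p = 0.00554). AT4G08430, an Ulp1 protease family gene, was read 14 times from the mother and 20 times from the father in met1 father endosperm, against 74 and 0 in wild-type pure and 196 and 1 in wild-type full endosperm, and its ratio rose (edgeR, adjusted p = 4.72e-08). AT4G18650, annotated as transcription factor-like, had a paternal share of 74.2% (64.3% to 82.6%), against 3.85% and 16.2%, and its ratio rose by 4.36 (SE 0.79, edgeR, adjusted p = 3.9e-05).

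In 2 of the 25 the ratio was high through missing maternal reads. AT2G21420, an IBR-domain gene, had 0 maternal and 15 paternal reads in met1 father endosperm, against 366 maternal and 99 paternal in wild-type pure and 91 and 37 in wild-type full endosperm (edgeR, adjusted p = 1.48e-05). AT4G22250, a RING/U-box gene, had 0 and 12, against 120 and 88 in wild-type pure and 95 and 62 in wild-type full endosperm (adjusted p = 0.0312). A count of 0 allows a maternal share of up to 20% and 25% at these depths (3 reads of the total).

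The 17 genes with a lower ratio had a median paternal share of 4.76% in met1 father endosperm, against 36.9% and 25.8%, and 5 of them passed the rule for lower paternal reads. INT4, an inositol transporter gene, had 0 paternal and 40 maternal reads in met1 father endosperm, against 31 and 25 in wild-type pure and 70 and 88 in wild-type full endosperm (adjusted p = 0.000296), so its paternal share was at most 7.5% by the limit that a count of 0 allows (3 reads of 40), against 55.4% and 44.3%. The maternal copy of INT4, at 37.8 RPM in met1 father endosperm, stood 4.3-fold above wild-type pure and 2.08-fold above wild-type full endosperm. For ADT4, an arogenate dehydratase gene of phenylalanine synthesis, the maternal copy stood high, at 890 RPM, against 189 and 229 RPM, while the paternal copy gave 1 read, against 31 and 24 (ratio lower by 5.01 on the log2 scale, SE 0.97, adjusted p = 0.000247). The receptor kinase gene GSO2, which acts in forming the embryo cuticle, had 12.3 paternal RPM, against 15.8 and 57.8 RPM, and 739 maternal RPM, against 94.0 and 515 RPM (ratio lower by 3.01, SE 0.61, adjusted p = 0.000648). HSFA2, a heat shock transcription factor gene, had a paternal share of 9.07%, against 30.9% and 22.7% (adjusted p = 0.0258), and that of NAC075, a NAC transcription factor gene, was 3.94%, against 21.3% and 13.6% (adjusted p = 0.00237). All 5 adjusted p are from edgeR. The lower ratio of HSFA2 was called in 7 of 11 alternative analyses. It was not called against the median change of all genes, where its log2 change was −1.46, against −1.86 in the main fit. A lower share was thus seen beside a lower paternal level (ROS1), and beside a lower paternal and a higher maternal level together (INT4, ADT4). Seed coat markers were higher in met1 father than in both wild types, 1.98% of their reads being paternal, against 10.6% and 3.24%, and their part in the lower ratios was not tested.

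**Figure D4:**
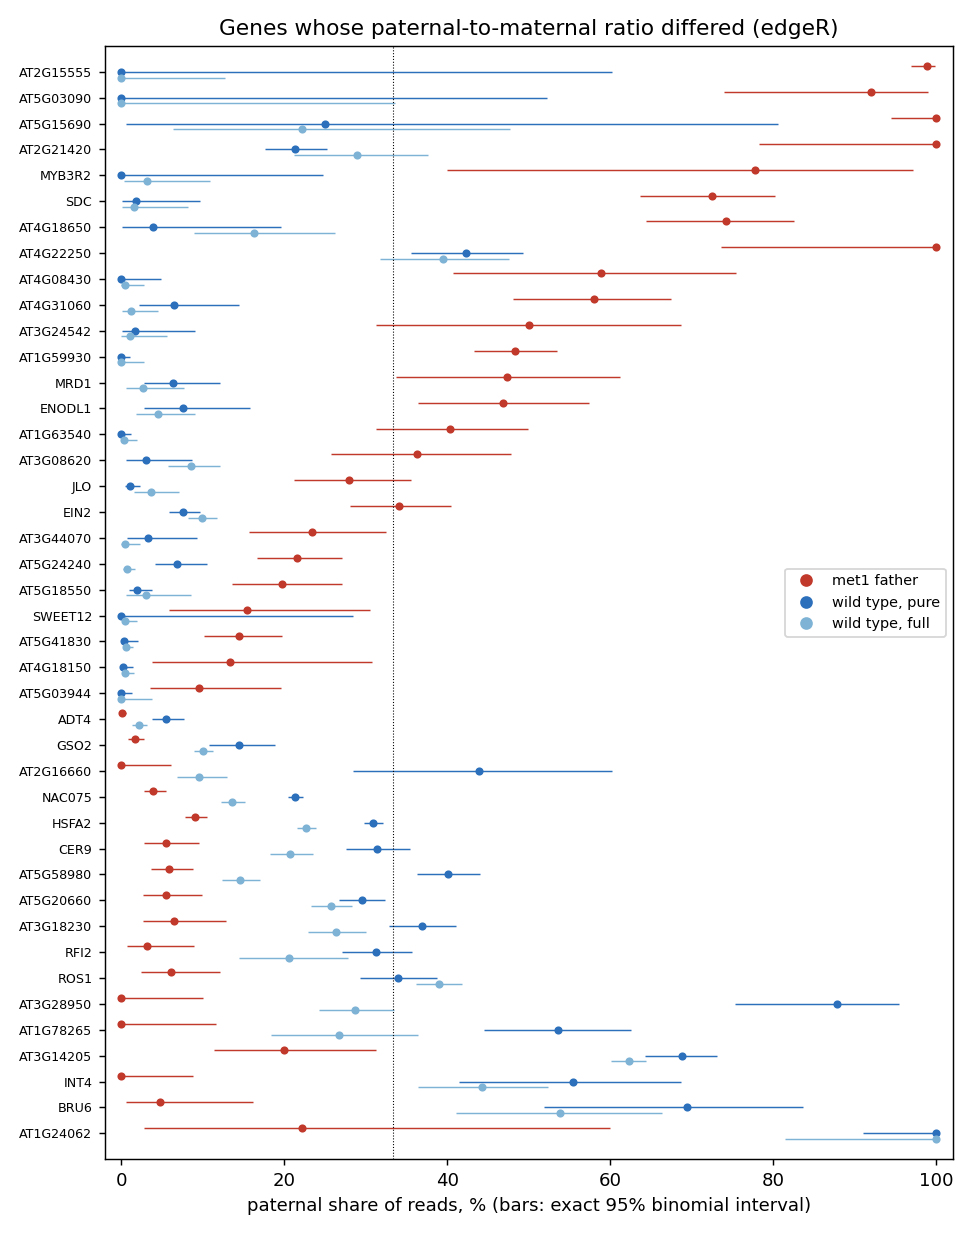
Paternal share of reads (%) in met1 father (red), wild-type pure (dark blue) and wild-type full (light blue) endosperm for the 25 genes whose paternal-to-maternal ratio rose (upper part) and the 17 whose ratio fell (lower part) by edgeR, with exact 95% binomial intervals. The dotted line marks 33.3%, the paternal share of the genome copies in endosperm.

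Total expression, both copies added, was past the rule for 50 genes in the higher direction (0.811% of 6168) and 74 in the lower direction (1.2%). The split turned with the settings: 17 were higher and 11 lower at 8-fold, 97 and 74 with at least 10 reads, and 496 and 270 against wild-type pure endosperm alone. By edgeR, total reads of 0 of 11219 genes rose (0%) and 0 fell, with 96 and 108 genes at an unadjusted p under 0.05, and DESeq2 called 6 higher and 1 lower. The median standard error of a gene's total log2 change was 1.17, so a 4-fold change of a typical gene was not detectable by this fit, and the count of 0 does not show that totals were alike. The edgeR count was 3 without the deeper of the wild-type pure Col × Ler libraries and 14 without the full one. Of the 50 genes, 16 had at least 50% paternal reads in met1 father endosperm, 26 had at most 5% and 8 lay between. The first kind includes AT1G67105, AT2G15555, AT3G30230, AT2G06562 and SDC. The totals of some genes with a called paternal rise were not past the rule: AT1G59930 stood at 370 RPM, against 119 and 26.5 RPM, and AT1G63540 at 108 RPM, against 108 and 57.6 RPM. AT1G47395, an uncharacterised protein gene, was read from both copies, with 12 maternal and 13 paternal reads in met1 father endosperm and 0 reads in both wild types, and was at least 22.4-fold and at least 38.1-fold higher.

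Among the 26 nearly all-maternal genes is a known seed coat gene. PRX36, a peroxidase that loosens the wall of seed coat mucilage cells, had 95.5 RPM in met1 father endosperm, against 0 in wild-type pure and 1.86 RPM in wild-type full endosperm, and was at least 90.5-fold and 51.3-fold (26.0 to 115) higher. ZW9, a TRAF-like gene, had 44.5 RPM, against 0 and 2.28 RPM. CEP2, a cysteine protease gene, had 21 reads, all maternal, against 0 in both wild types. LTP3, a lipid transfer protein gene, had 398 RPM, against 32.0 and 60.3 RPM. Of the 26, 20 were also higher in wild-type full than in wild-type pure endosperm, as were 62.3% of all 6168 genes. In the seed coat list 24 of 30 genes had a read, 7 were at 0 in met1 father endosperm (TT2, TT12 and MUM4 among them), and the median fitted log2 change of 21 tested members was 1.25, against −0.08 over all genes. Its most abundant member, the laccase gene TT10, had 9629 RPM, against 1489 and 7559 RPM, and the flavonoid genes DFR and BAN had 369 and 185 RPM, against 27.5 and 9.15 RPM in wild-type pure and 246 and 76.2 RPM in wild-type full endosperm. The part of seed coat RNA in the maternal and total values was not tested, and more cells of a type and more RNA per cell cannot be told apart in these bulk libraries.

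Maternal reads passed the rule for 42 genes in the higher direction (0.804% of 5227) and 57 in the lower direction (1.09%), and the split turned to 85 and 57 with at least 10 reads and to 516 and 187 against wild-type pure endosperm alone. By edgeR 0 of 10310 genes were called (0% each way), with 94 and 85 at an unadjusted p under 0.05, and DESeq2 called 1 higher and 0 lower. Of the 50 genes with higher totals, 32 passed the rule for maternal and 12 for paternal reads, with DI21 in both. Among the 74 with lower totals, 33 passed it for maternal and 21 for paternal reads, with 12 in both. WRKY49, a transcription factor gene read mainly from the Ler copy in both cross directions, had 1 read in met1 father endosperm, against 172 and 512, a level lower by 64.0-fold (counting interval 11.3 to 2543) and 112-fold (20 to 4436). FLS3, a flavonol synthase family gene also read from the Ler copy, had 3 reads, against 98 and 196. LRB3, a BTB/POZ gene, had 0 reads, against 96 and 128, and was at least 11.9-fold and at least 9.34-fold lower. None of these genes passed edgeR's threshold for totals (adjusted p = 0.899 for WRKY49 and 1.0 for FLS3 and LRB3).

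Known imprinted genes did not form 1 pattern. Of 11 genes listed in the literature as maternally expressed, 8 had a read and 5 were tested, of which the ratio rose for 2 (SDC and MYB3R2), against 0.223% of all genes tested, and fell for 0. MYB3R2, a MYB transcription factor gene, had 2 maternal and 7 paternal reads in met1 father endosperm, against 13 and 0 in wild-type pure and 62 and 2 in wild-type full endosperm (edgeR, adjusted p = 0.00792). Summed over the list, 60.2% of reads were paternal, against 15.1% and 29.7%, and SDC gave most of the paternal reads in met1 father endosperm. FWA, a gene known for silencing by methylated repeats, had 1 maternal and 3 paternal reads, against 1 and 0 in each wild type, which is too few to compare. HDG9, another HD-ZIP IV gene, had 1.89 RPM, all maternal, against 51.0 and 14.5 RPM. The list had 5 members at 0 in met1 father endosperm, among them the Polycomb genes MEA and FIS2, which had at most 3 reads in either wild type.

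Of 11 genes listed as paternally expressed, 9 had a read and 7 were tested, with 0 called in either direction for the ratio (1 and 1 at an unadjusted p under 0.05). The median fitted log2 change of the 7 was −5.10 for totals, against −0.08 over all genes, and −3.23 for the ratio, against −0.41. Members at 0 in met1 father endosperm enter these medians, which thus rest partly on low counts. VIM5, a gene of the family that binds hemimethylated DNA, gave most reads of the list. It had 233 paternal RPM, against 689 and 322 RPM, and 9.46 maternal RPM, against 51.0 and 41.0 RPM, so it stayed 96.1% paternal (92.9% to 98.1%), against 93.1% and 88.7%. YUC10, an auxin synthesis gene, had 5 paternal and 6 maternal reads, a paternal share of 45.5% (16.7% to 76.6%), against 95.2% and 89.5% (ratio adjusted p = 0.247). The list had 7 members at 0 in met1 father endosperm, among them SUVH7, AGL92 and ADM, which had at most 12 paternal reads in either wild type.

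As edgeR called no gene for totals, it called none in the other lists either. At an unadjusted p under 0.05, 1 seed coat gene was higher and 1 gene each of the small RNA and cell cycle lists was lower, against 96 higher and 108 lower of all 11219 genes, so nothing is read from these counts. In the DNA methylation list 17 of 21 genes had a read and the tested 14 had a median log2 change of −0.80, against −0.08 over all genes. Of its members with enough reads, 1 of 11 passed the rule for lower totals, against 1.2% of all genes. For lower maternal reads 1 of 10 passed, against 1.09%, and 0 passed in the higher direction. CMT2 stood at 284 RPM, against 271 and 420 RPM, and VIM1 at 70.0 RPM, against 83.8 and 77.0 RPM. In the small RNA pathway list (20 tested, median 0.17) only CLSY1 passed the rule for totals. For AGO4, the Argonaute of this pathway, the total was 264 RPM, against 143 and 234 RPM. The 5 demethylation genes, of which 4 had a read, include DME, at 71.9 RPM, against 141 and 137 RPM, and ROS1, the 1 member with a called ratio. Of 23 type I MADS genes, which act early in endosperm growth, 0 had a read in met1 father endosperm, against summed levels of 7.75 and 4.76 RPM, which are few reads at these depths. The MADS-box family gene AT1G59930, described above, is not on this list. HD-ZIP IV genes summed to 1523 RPM, against 994 and 1133 RPM, with HDG3 and HDG9 low and PDF2 at 285 RPM, against 73.6 and 152 RPM. Heat shock genes summed to 62702 RPM, against 84117 and 35218 RPM, so the met1 father library lay between the wild types. Embryo markers, at 1293 RPM, lay near wild-type full endosperm (1241 RPM) and above wild-type pure (493 RPM), with 12 of 26 members, LEC2, WOX2 and STM among them, at 0 in met1 father endosperm. Of the 26, 21 had a read in any of the 3 libraries. Most of the embryo sum in met1 father endosperm came from GSO2, which was read mainly from the maternal copy. Of all reads of the embryo list 14.1% were paternal, against 27.9% and 24.3%. Storage reserve genes summed to 21989 RPM, against 16596 and 25203 RPM, Polycomb PRC2 genes to 199 RPM, against 272 and 211 RPM, photosynthesis genes to 2913 RPM, against 3430 and 3208 RPM, cell cycle genes to 334 RPM, against 432 and 466 RPM, and hormone genes to 803 RPM, against 1172 and 1047 RPM.

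**Figure D5:**
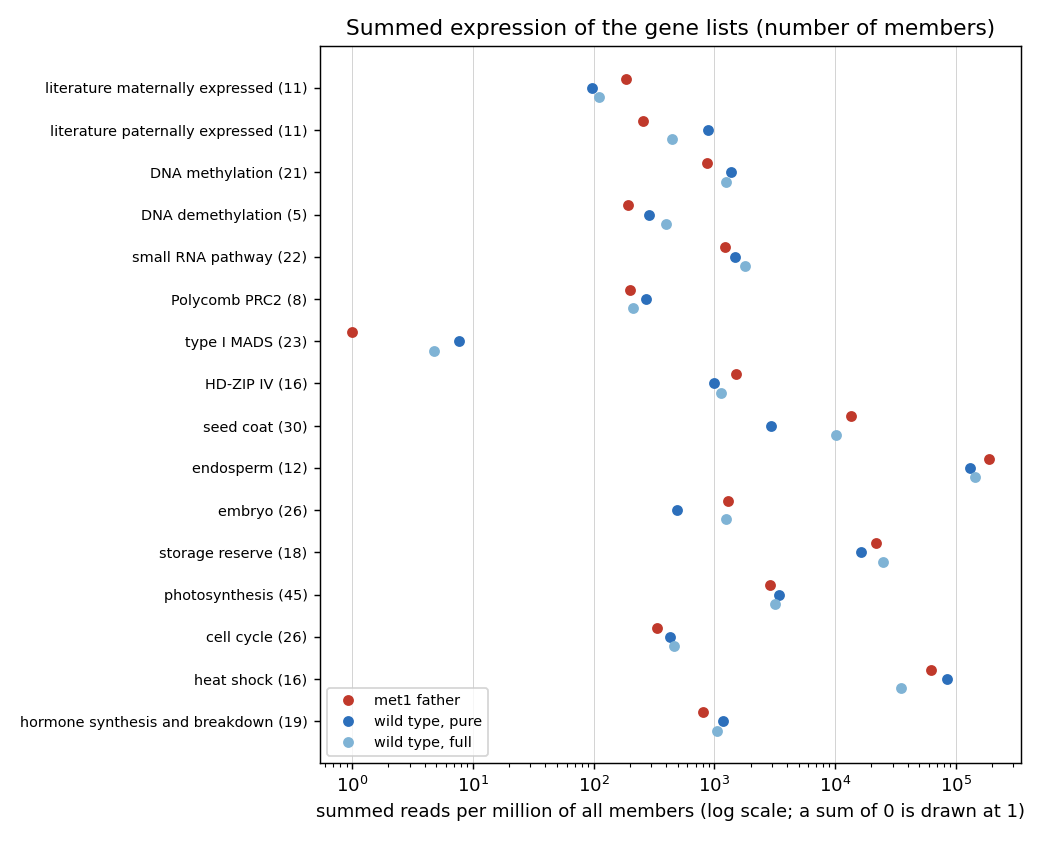
Summed RPM of all members of each gene list in met1 father (red), wild-type pure (dark blue) and wild-type full (light blue) endosperm, on a log axis with a sum of 0 drawn at 1. The seed coat and embryo sums of met1 father endosperm stand near those of wild-type full and above those of wild-type pure endosperm, and the type I MADS sum is 0. Most of the embryo sum in met1 father endosperm is GSO2.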

How the data were processed

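Allele-specific read counts per gene were used from 6 endosperm libraries of wild-type mothers, of which 3 are of the Ler × Col cross. Per the deposited readme, the authors counted for each gene the reads with fewer mismatches to the Col than to the Ler cDNA models, and the reverse. The submitters' processing notes name Bowtie. No source used here gives its version, the genome build, the annotation release, strand use or the treatment of multi-matching reads, so no coordinates are printed. Reads that fit both ecotypes equally are not in these counts, so genes with few sequence differences are measured poorly. Of 28523 genes, 27688 matched TAIR10.1 locus tags, which gave symbols, products and gene types.

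Levels are reads per 1000000 allele-assigned reads of the library, from 1057104 to 4828301 reads in the 3 compared libraries. Counts under 3 were set to 3 reads per library for the rule of 4-fold with at least 20 reads. Ratios of levels have exact 95% conditional binomial intervals and shares exact Clopper-Pearson intervals, while a count of 0 is given the limit of 3 reads of the total, all covering counting error only. The edgeR 4.0.16 robust quasi-likelihood fit (R 4.3.3, limma 3.58.1) had terms for cross direction and met1, scaling by library totals and at least 10 reads over the 3 libraries, with adjusted p under 0.05. The ratio fit had terms for library, allele, parent and the parent effect in met1. The met1 library has no replicate and leaves no residual of its own. The labels do not say that libraries of 1 group came from separate plants. Alternatives used TMM factors, DESeq2 1.42.0, other read minimums and folds, fewer libraries and a preparation term. Other work used Python 3.11.15, pandas 2.3.3, scipy 1.17.1 and matplotlib 3.10.9.

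The compared libraries and the 16 gene lists were chosen with earlier results of these data known. Named genes come from the 10 per direction with the largest smaller fold against the 2 wild types for total, paternal and maternal reads, the 10 per direction with the smallest ratio p, up to 4 members per list past the rule or called, and the tested literature imprinted genes. Other genes named were chosen after their values were seen.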

Additional observations from a re-analysis of the deposited data

How the results depend on the processing

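The balance of higher and lower genes turned under several alternatives. The fitted changes of the genes called by edgeR for paternal reads or the ratio kept their sign in the alternatives run. The edgeR count for totals, 0, was 7 with DESeq2, 16 with at least 1 read, 4 with the 3 same-cross libraries only, 5 with a term for preparation and 0 to 14 without each wild-type library. The paternal count, 16, was 9 with TMM scaling, 7 with at least 30 reads, 32 with at least 1 read, 41 with the 3 same-cross libraries only, 68 with a term for preparation (47 higher and 21 lower) and 3 to 33 without each wild-type library. The maternal count, 0, was 1 with DESeq2, 2 with at least 1 read, 2 with the 3 same-cross libraries only, 4 with a term for preparation and 0 to 1 without each wild-type library. The ratio count, 42 (25 higher and 17 lower), was 13 with DESeq2, which gave an adjusted p for 2086 genes only, 165 with a term for preparation (31 higher and 134 lower) and 17 to 86 without each wild-type library. Of the 4-fold rule, the total count of 124 (50 higher and 74 lower) was 753 at 2-fold (313 and 440), 28 at 8-fold (17 and 11), 171 with at least 10 reads (97 and 74), 80 with at least 50 reads (24 and 56) and 346 to 766 against 1 wild-type library (82 and 264 against full, 496 and 270 against pure). The paternal count of 102 (27 and 75) was 628 at 2-fold (100 and 528), 29 at 8-fold (21 and 8), 133 with at least 10 reads (58 and 75) and 226 to 422 against 1 library (42 and 184, 98 and 324). The maternal count of 99 (42 and 57) was 668 at 2-fold (318 and 350), 14 at 8-fold (6 and 8), 142 with at least 10 reads (85 and 57), 65 with at least 50 reads (22 and 43) and 305 to 703 against 1 library (73 and 232, 516 and 187). Folds, read minimums and numbers of libraries change these counts by construction, and the cause of the other differences was not tested. TMM scaling moved the median total change of all genes to −0.21 on the log2 scale, against −0.08 with library totals. Of the 16 paternal calls, 9 remained with TMM, 11 with DESeq2 and 16 with a term for preparation, and of the 42 ratio calls 9 remained with DESeq2 and 39 with a term for preparation.

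No paired analysis was possible because the labels carry no replicate numbers and 1 library has a met1 father. The met1 father library is the shallowest of the 3, and 3 reads in it are 2.84 RPM. By the rule, a paternal loss could therefore be seen only in genes at least 4-fold above that level in both wild types. Pure and full preparations of wild type differ from each other by more than sampling noise, and the met1 father was measured in a pure preparation only. Differences from its plants, its dissection or its Col background cannot be told apart from those of the met1 allele.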
